A study of Mus musculus with 6 samples.

Results

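Lysosomal genes were examined here in RNA from mouse samples labelled bone marrow that lacked or carried Gab2. Cathepsins, glycosidases, other soluble proteins and membrane proteins were taken apart. The members were 41 gene symbols chosen by name, with earlier results of these data known. All 41 were present among the 23359 symbols of the deposited expression table. They comprised 8 cathepsins, 11 glycosidases, 10 other hydrolases and soluble proteins, 11 membrane proteins and the transcription factor gene Tfeb. The samples were 3 NULL libraries labelled Gab2 -/- and 3 WT libraries labelled Gab2 +/+, called A, B and C in each group. Gab2 encodes a docking adaptor that couples cytokine receptors and BCR-ABL1 to downstream kinases, and the series title places the libraries in a study of myeloid and lymphoid transformation by BCR-ABL1. The labels give genotype and tissue and state no strain, age, sex, treatment or culture, nor whether a library came from 1 animal or several. The p-values therefore speak only of the spread among these libraries, and that spread may be technical.

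Lysosomes are acidic organelles in which hydrolases take apart proteins, glycans and lipids delivered by endocytosis and autophagy. Most soluble hydrolases are marked with mannose-6-phosphate in the Golgi and carried to the lysosome by mannose-6-phosphate receptors, while heavily glycosylated membrane proteins, a proton pump and ion channels form the limiting membrane. The transcription factor TFEB binds a motif built around an E-box in the promoters of many such genes. In B-lineage cells lysosomal proteases also act on internalised antigen and on the invariant chain of MHC class II.

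Expression was measured as FPKM, a level scaled to transcript length and to the mapped fragments of the library, so that levels can be set side by side between genes. A difference is the NULL minus WT change in log2(FPKM + 1), tested with limma and called at a Benjamini-Hochberg adjusted p below 0.05 across the genes whose mean reached 1 FPKM. This scale understates differences of weakly expressed genes. The step size among low values placed the depth, in units of 1e6 fragments, at roughly 22.4 to 67.6 for the NULL libraries and 17.0 to 51.3 for the WT libraries. Small RNA genes held 8.62% to 30.1% of the summed FPKM in NULL libraries and 6.03% to 31.4% in WT libraries. Gab2 itself averaged 0.157 ± 0.0410 FPKM in NULL and 2.95 ± 0.466 FPKM in WT (SD, n = 3 each), a difference of -1.77 (limma adjusted p = 1.83e-05). Its mean of 1.56 FPKM over the 6 libraries reached the filter only through WT.

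The cellular makeup was read from marker genes. All 12 B-lineage markers reached 1 FPKM, with summed levels of 3559 to 3742 FPKM in NULL and 2252 to 2500 FPKM in WT. The neutrophil, erythroid, megakaryocyte and mast cell lists had 0 genes at 1 FPKM, although the tissue label reads bone marrow. Of 15 measured macrophage and monocyte markers only Itgam and Lyz2 reached that level, and both did so only through NULL. Mrc1 and Ccr2, below that level, went the other way without overlap. They averaged 0.163 and 0.0710 FPKM in NULL and 0.434 and 0.344 FPKM in WT. Itgam, an integrin chain of myeloid cells, averaged 4.56 ± 0.0250 FPKM in NULL and 0.0507 ± 0.0224 FPKM in WT (SD, n = 3 each). Lyz2, the myeloid lysozyme, averaged 2.85 ± 0.659 FPKM in NULL and 0.413 ± 0.154 FPKM in WT (SD, n = 3 each). The summed macrophage and monocyte list read 7.83 to 8.78 FPKM in NULL and 1.45 to 1.58 FPKM in WT, and Cd14, C1qa, C1qb, C1qc, Marco and Vcam1 were listed at 0 in all 6 libraries. Mast cell and basophil markers summed to 0.504 to 2.85 FPKM in NULL and at most 0.0165 FPKM in WT. Eosinophil markers summed to 3.66 to 4.36 FPKM in NULL and 0.812 to 1.44 FPKM in WT, T and NK cell markers to 41.8 to 49.2 and 24.7 to 27.3 FPKM, and dendritic cell markers to 4.86 to 6.59 and 8.68 to 14.1 FPKM. Most of the eosinophil sum was Prg3 and Il5ra, while Ear1, Ear2 and Ccr3 were listed at 0 throughout. Prg3 averaged 1.78 FPKM in NULL and 0.552 FPKM in WT, and Il5ra 1.64 and 0.381 FPKM. The T and NK cell sum was almost wholly Lck, at 44.8 ± 3.66 FPKM in NULL and 26.2 ± 1.43 FPKM in WT (SD, n = 3 each). Cd3e, Cd3g, Cd8a and Ncr1 were near 0 and Cd4 was listed at 0. Most of the dendritic cell sum was Bst2, at 5.14 ± 0.827 FPKM in NULL and 10.6 ± 2.78 FPKM in WT (SD, n = 3 each). Itgax and Siglech of the dendritic cell list, below 1 FPKM, went the other way without overlap. They averaged 0.150 and 0.0645 FPKM in NULL and 0 and 0.00164 FPKM in WT. Of 9 osteoclast markers only Nfatc1 reached 1 FPKM, and Mmp9 and Ocstamp were listed at 0 throughout. The list sums of 5.99 to 6.89 FPKM in NULL and 3.56 to 3.96 FPKM in WT were mostly Nfatc1, at 5.77 and 3.50 FPKM on average. Ctsk, Atp6v0d2 and Tnfrsf11a, below 1 FPKM, were also higher in NULL without overlap. They averaged 0.158, 0.149 and 0.322 FPKM in NULL and 0.0158, 0.0013 and 0.212 FPKM in WT. The part of these marker differences in the lysosomal differences was not tested. In bulk RNA fewer cells of a type and less RNA per cell cannot be told apart.

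Promoters of the genes called here give the sequence context of the family. RefSeq promoters on GRCm38.p6, spanning 250 bases before to 50 bases after an annotated start, were found for 37 of the 41 members, and Ctsb, Ctsh, Asah1 and Npc1 were not matched. The E-box CACGTG, which reads the same on both strands, stood in a promoter of 11 of these 37 genes (29.7%), against 8.09% of the 27025 genes in that table. The longer form GTCACGTG, which contains the E-box and was searched on both strands, stood in 9 of 37 (24.3%), against 2.55% of all genes. The 9 genes were Ctsa, Ctsd, Gla, Glb1, Naglu, Sgsh, Lamp1, Mcoln1 and Clcn7. A match describes letters in the window and is not a measurement of binding. Shown are the 250 bases before the start, 5′ to 3′ on the gene's own strand, for 4 called genes that rose and for Gla, which fell. Capitals mark the E-box, with GT before it or AC after it where these complete the longer form.

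Lamp1: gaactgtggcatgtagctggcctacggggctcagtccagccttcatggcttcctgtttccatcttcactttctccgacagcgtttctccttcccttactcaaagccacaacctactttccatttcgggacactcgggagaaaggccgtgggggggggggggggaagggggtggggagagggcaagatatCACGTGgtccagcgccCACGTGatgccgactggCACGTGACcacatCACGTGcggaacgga
Clcn7: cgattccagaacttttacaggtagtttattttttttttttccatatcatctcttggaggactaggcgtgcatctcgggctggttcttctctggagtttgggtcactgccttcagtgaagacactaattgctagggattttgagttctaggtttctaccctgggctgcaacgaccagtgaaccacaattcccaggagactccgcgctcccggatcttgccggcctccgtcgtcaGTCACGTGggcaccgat
Ctsa: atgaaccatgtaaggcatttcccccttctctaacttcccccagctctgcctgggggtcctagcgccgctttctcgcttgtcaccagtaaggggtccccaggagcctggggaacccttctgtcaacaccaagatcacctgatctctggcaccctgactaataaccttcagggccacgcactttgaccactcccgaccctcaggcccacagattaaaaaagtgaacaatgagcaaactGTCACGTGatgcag
Ctsd: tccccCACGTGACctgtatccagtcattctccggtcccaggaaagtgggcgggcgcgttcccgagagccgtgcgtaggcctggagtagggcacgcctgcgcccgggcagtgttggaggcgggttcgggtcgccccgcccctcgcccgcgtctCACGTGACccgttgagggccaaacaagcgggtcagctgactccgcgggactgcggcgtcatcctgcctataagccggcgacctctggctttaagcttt
Gla: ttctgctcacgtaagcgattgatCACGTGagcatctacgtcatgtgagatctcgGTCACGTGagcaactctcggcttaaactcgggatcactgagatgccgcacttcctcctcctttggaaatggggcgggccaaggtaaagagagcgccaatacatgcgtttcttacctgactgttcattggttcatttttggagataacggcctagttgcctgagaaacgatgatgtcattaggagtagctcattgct

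These windows lie at chr8:13158911-13159160 on the plus strand for Lamp1, chr17:25133141-25133390 on the plus strand for Clcn7, chr2:164833523-164833772 on the plus strand for Ctsa, chr7:142387828-142388077 on the minus strand for Ctsd and chrX:134601006-134601255 on the minus strand for Gla. The Lamp1 window held 4 E-boxes, beginning at bases -61, -45, -28 and -15 from the start. Clcn7 and Ctsa each had 1 in the window, beginning at -15 and -12, and each had another just after the start. Those of Ctsd began at -245 and -98, and those of Gla at -227 and -194. Of the 9 genes with the longer motif 6 were called higher in NULL, 1 was called lower and 2 were not called, with a median difference of 0.39. Of 26 tested genes with a promoter entry and without the longer motif, 12 were called higher, 3 lower and 11 were not called, with a median of 0.16. Over all 9916 tested genes 23.3% were called higher and 42.0% lower, with a median of -0.13. The members were chosen with earlier results of these data known, and a link between motif and difference was not tested. Psap, Grn and Laptm5, which had 3 of the 4 largest increases described next, were among the genes without the longer motif.

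In the NULL libraries 20 of 38 tested lysosomal genes rose and 4 fell on the deposited scale, with increases between 0.20 and 1.77. Over all 9916 tested genes 23.3% were called higher and 42.0% lower. The median difference was 0.24 for the lysosomal genes and -0.13 for all tested genes. Because the members were chosen with earlier results of these data known, these shares and medians describe the list and test nothing. The largest increases were those of Ctsb, a cysteine cathepsin, Psap, the precursor of the saposins, Grn, which encodes progranulin, and Laptm5, a lysosomal membrane protein of blood cells. The largest decrease was that of Gusb, the beta-glucuronidase gene. NULL and WT values did not overlap for 26 of the 38 genes, a share below the 71.0% found over all tested genes. The filter used the mean over all 6 libraries, so that near it the level of 1 group could decide. Ctsh, Ctsl and Cd63 were below it. Acp2 at a mean of 1.02 FPKM stood just inside the filter and Ctsl at 0.737 FPKM just outside. Acp2 passed through its NULL mean of 1.09 FPKM, against 0.946 FPKM in WT, while Ctsl failed with a NULL mean of 1.13 FPKM.

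**Figure D1:**
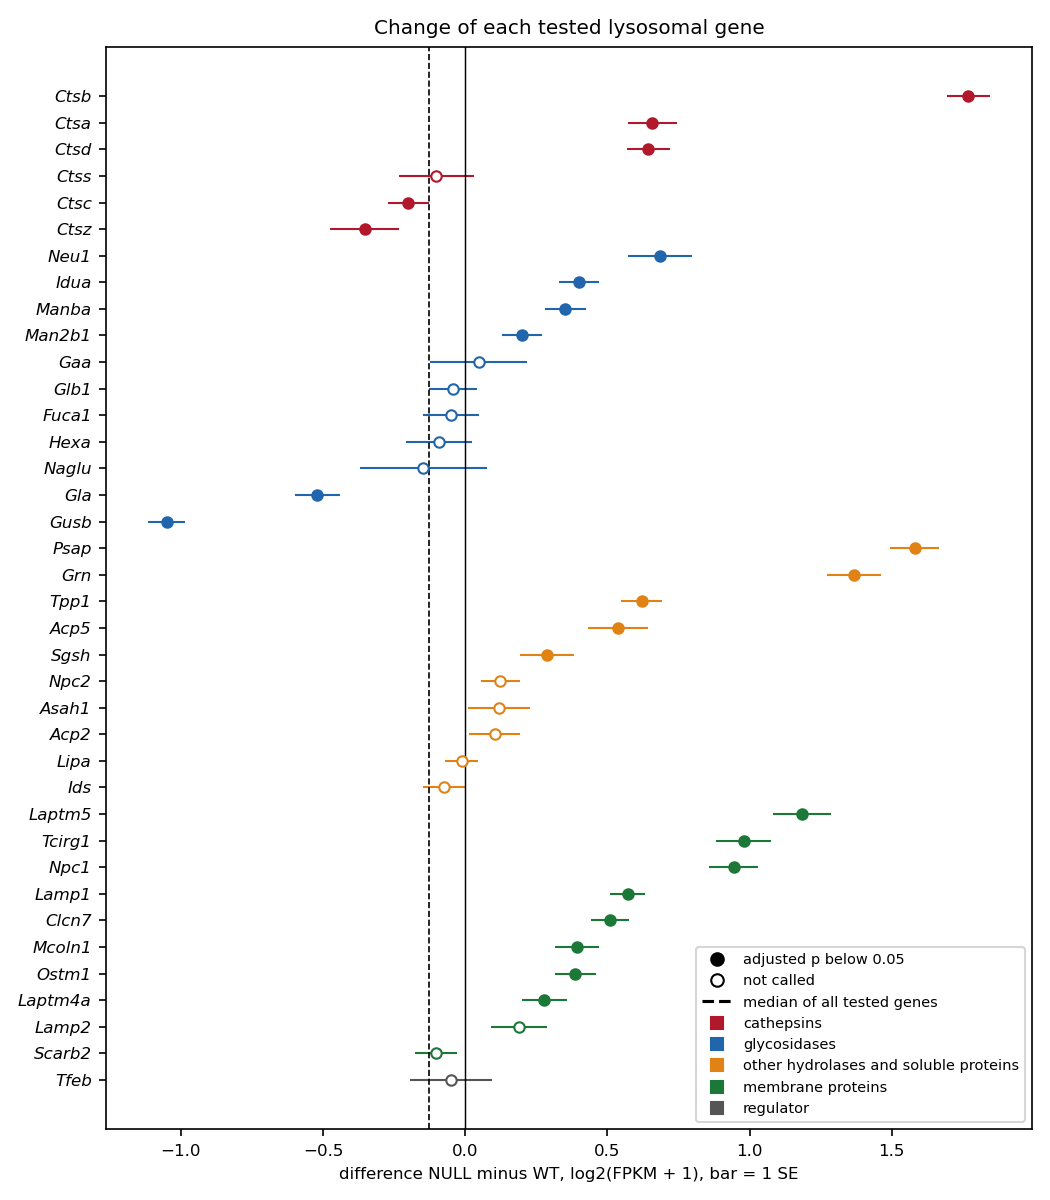
NULL minus WT difference in log2(FPKM + 1) for the 38 tested lysosomal genes, by class, with bars of 1 SE (n = 3 libraries a group); filled points passed the adjusted p of 0.05 and the dashed line is the median of all tested genes at -0.13. Most filled points lie to the right of 0, with Ctsb at 1.77 and Psap at 1.58 farthest, and Gusb lies farthest to the left at -1.05.

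Lower calls depended on how libraries were scaled more than higher calls did. Median-of-ratios scaling left 22 lysosomal genes higher and 2 lower, where 31.7% and 32.7% of all genes were called. Under quantile normalization the members again numbered 22 and 2, where the background was 28.5% and 33.1%. With library totals made equal 18 members were higher and 1 lower, beside 20.4% and 10.1% of all genes. With totals equalised over genes other than small RNAs 28 were higher and 1 lower, beside 45.1% and 20.6%. Of the members, 17 were called higher in all alternatives that gave a value, namely Ctsa, Ctsb, Ctsd, Neu1, Manba, Idua, Tpp1, Acp5, Psap, Grn, Lamp1, Mcoln1, Npc1, Laptm5, Tcirg1, Clcn7 and Ostm1. Gusb alone was called lower in all of them.

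**Figure D2:**
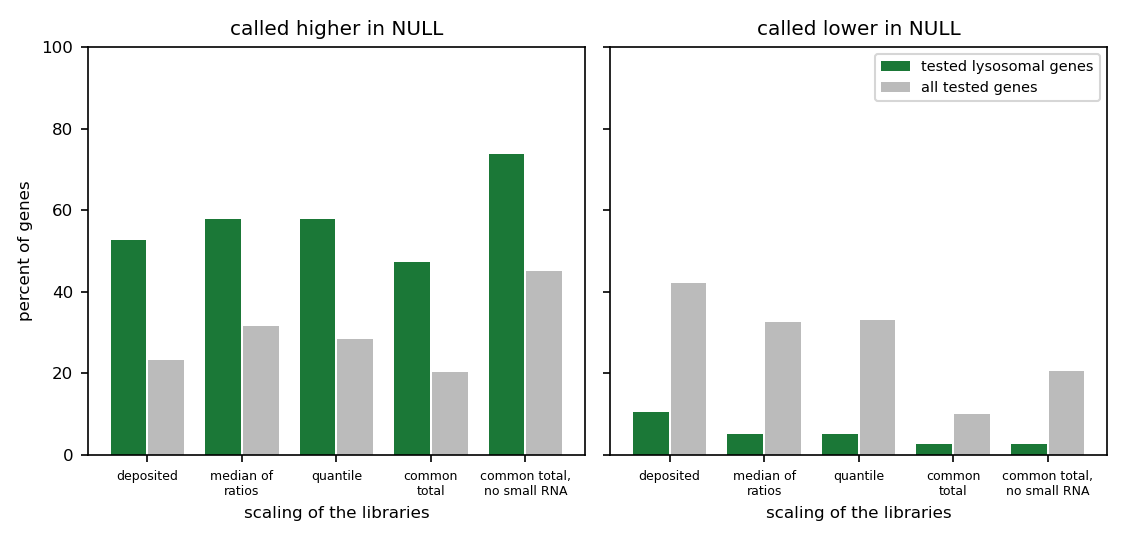
Percent of the 38 tested lysosomal genes and of all 9916 tested genes called higher (left) or lower (right) in NULL under the deposited scale and 4 rescalings. The lysosomal bar stands above the bar of all genes on the left and below it on the right in each of the 5 scalings, for example at 52.6% against 23.3% higher on the deposited scale.

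Levels within the family spanned a wide range, and the distribution shifted toward Psap in NULL. Summed FPKM of the 41 genes were 967, 1021 and 951 in the NULL libraries and 619, 641 and 678 in the WT libraries. Psap supplied 23.8%, 24.5% and 22.5% of that sum in the NULL libraries and 11.7%, 12.9% and 11.1% in the WT libraries. A share of this kind within a library does not depend on how libraries are scaled to each other. By mean level over the 6 libraries Psap was first, followed by Lamp1, Npc2, Laptm5 and Ctsb. Hexa, Ids, Sgsh and Acp2 were the lowest of the tested genes, at means of 1.02 to 1.53 FPKM. Glycosidases together had sums of 80.4, 78.7 and 76.0 FPKM in the NULL libraries and 82.9, 87.0 and 95.6 FPKM in the WT libraries on the deposited scale. Without Gusb these sums were 67.5, 65.3 and 62.3 FPKM in NULL and 55.7, 58.3 and 65.4 FPKM in WT, and the groups overlapped. Cathepsins, other soluble proteins and membrane proteins each had sums that were higher in every NULL library than in any WT library. For the cathepsins this rested on Ctsb, since without it their sums overlapped between the groups and WT C had the highest.

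**Figure D3:**
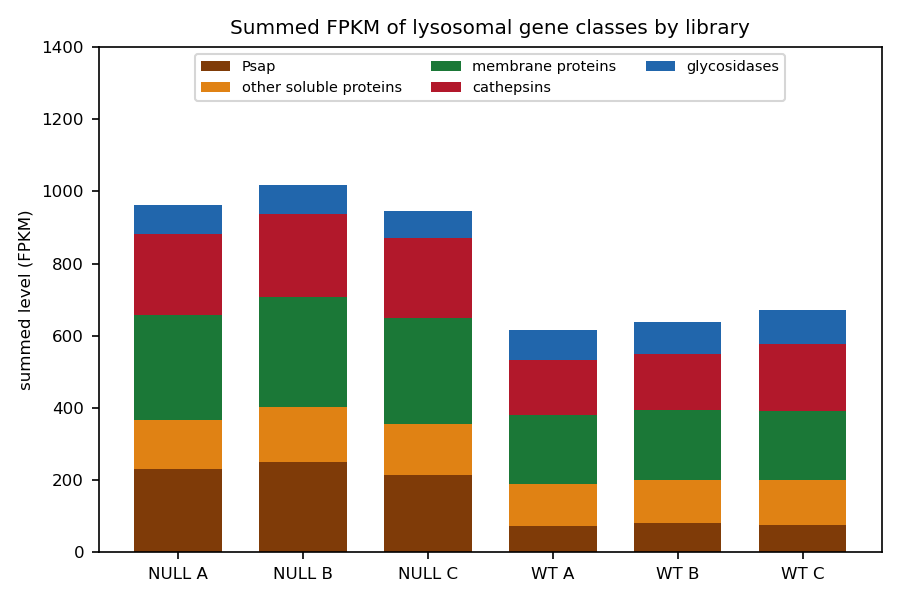
Summed FPKM of the lysosomal classes in each library, with Psap drawn apart from the other soluble proteins and Tfeb left out. The summed levels over all 41 genes are 951 to 1021 FPKM in NULL and 619 to 678 FPKM in WT, and the Psap segment differs visibly between the groups.

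Among the cathepsins, Ctsb, Ctsa and Ctsd rose in NULL, while Ctsc and Ctsz were lower on the deposited scale. Ctsb (GRCm38 chr14:63122462-63145923, plus strand) encodes a cysteine protease with both endopeptidase and dipeptidase activity. It read 65.9, 69.1 and 61.8 FPKM in NULL libraries A to C, against 17.5, 20.0 and 18.1 FPKM in WT libraries A to C. All NULL values exceeded 3 times any WT value, and the difference was 1.77 (SE 0.075, limma adjusted p = 8.68e-06). Ctsa encodes the carboxypeptidase known as protective protein, which stabilises neuraminidase and beta-galactosidase. It read 29.3, 27.0 and 27.2 FPKM in NULL and 15.6, 17.0 and 19.4 FPKM in WT. Ctsd, the aspartic protease of lysosomes, read 46.5, 47.9 and 46.4 FPKM in NULL and 27.5, 29.3 and 32.5 FPKM in WT. Neither gene overlapped between the groups, and the differences were 0.66 (SE 0.087, limma adjusted p = 0.000363) for Ctsa and 0.64 (SE 0.075, adjusted p = 0.000197) for Ctsd.

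Of the other cathepsins Ctsc and Ctsz were called lower as deposited, Ctss was not called, and Ctsl and Ctsh were too low to be tested. Ctsc, the dipeptidyl peptidase that activates granule proteases, read 21.4, 22.9 and 24.0 FPKM in NULL and 27.8, 24.9 and 26.2 FPKM in WT, a difference of -0.20 (limma adjusted p = 0.0391). Its call was lost under all 4 rescalings, with a change of sign under 3 of them, and without any one of NULL A, NULL B, WT A and WT C (limma adjusted p = 0.0654 to 0.137). Ctsz, a carboxypeptidase of the papain family, read 24.8, 21.9 and 22.1 FPKM in NULL and 26.2, 27.2 and 36.1 FPKM in WT. Its difference was -0.35 (limma adjusted p = 0.0341), was -0.21 without WT C, and missed the threshold in all 4 rescalings, changing sign in 1. Without NULL B or NULL C it also missed the threshold (limma adjusted p = 0.0955 and 0.0963). Ctss, the cysteine protease that trims the invariant chain in B cells, averaged 37.5 ± 2.79 FPKM in NULL and 40.8 ± 8.09 FPKM in WT (SD, n = 3 each) and was not called. Within each library the level of Ctsb over that of Ctss was 1.92, 1.76 and 1.58 in NULL and 0.487, 0.554 and 0.361 in WT, so that Ctsb exceeded Ctss in every NULL library and in no WT library. This pair and those given further on were chosen after their values were seen. Ctsl, another cysteine endopeptidase, was below the filter at 1.13, 0.945 and 1.33 FPKM in NULL and 0.414, 0.245 and 0.365 FPKM in WT, without overlap. In the fit without a filter its difference was 0.67 (limma adjusted p = 0.00148). Ctsh was near 0, at no more than 0.0587 FPKM in NULL and at 0.238, 0 and 1.15 FPKM in WT, where WT C stood apart.

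**Figure D4:**
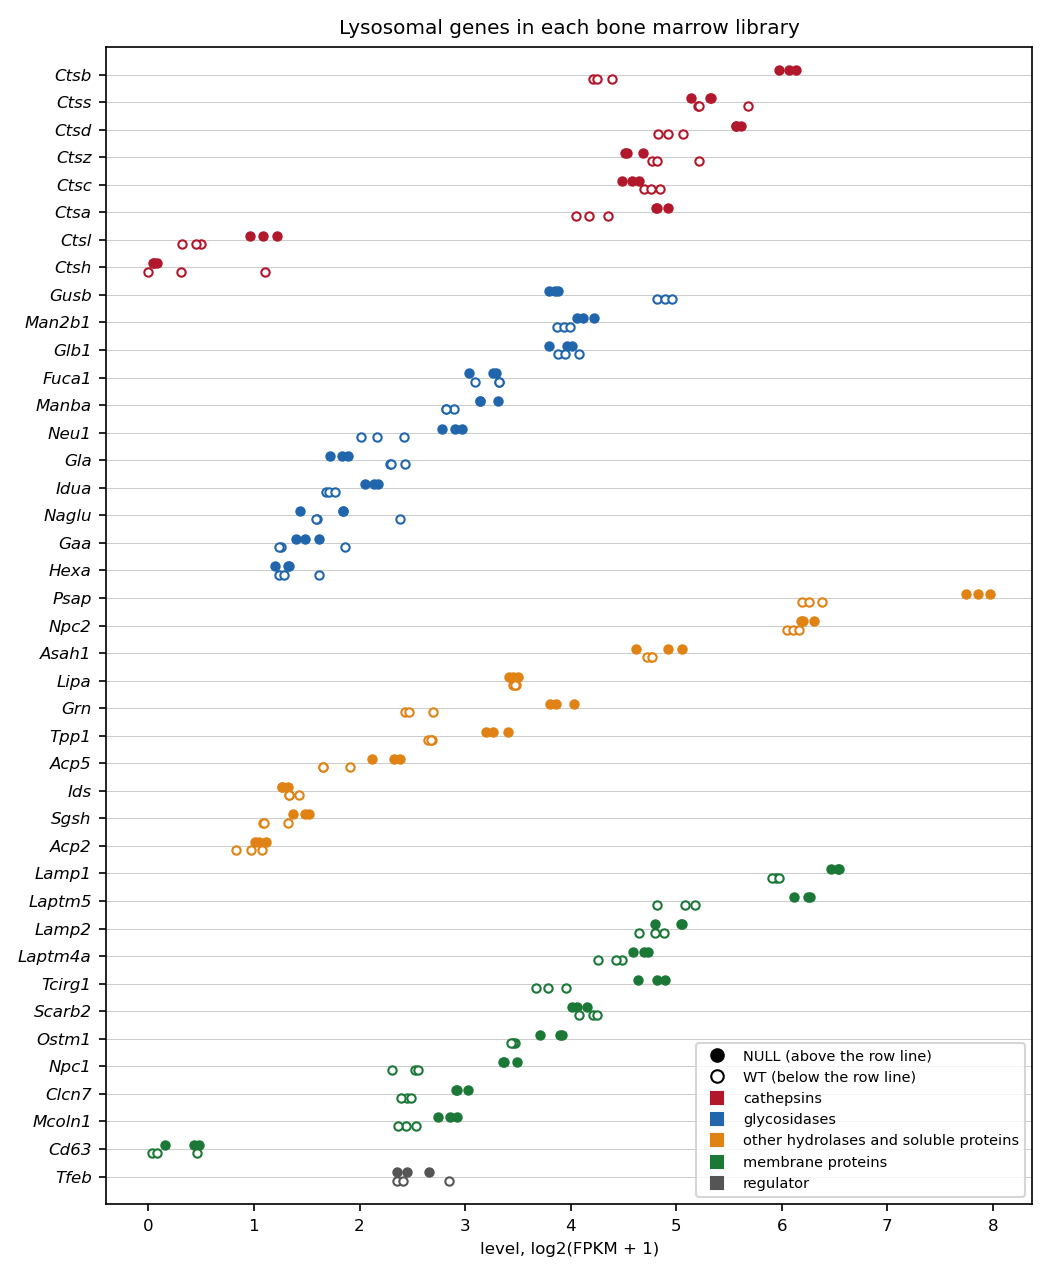
Level of all 41 lysosomal genes in each library as log2(FPKM + 1), ordered by mean within class, with NULL libraries filled and WT libraries open. Ctsb, Psap, Grn and Laptm5 show the widest gaps with NULL to the right, Gusb and Gla show NULL to the left, and Ctsh and Cd63 lie near 0.

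The glycosidases were divided, with Neu1, Idua, Manba and Man2b1 higher in NULL, Gusb and Gla lower, and 5 of 11 not called. The shares were 36.4% higher and 18.2% lower, beside 23.3% and 42.0% of all tested genes. Gusb (GRCm38 chr5:129989011-130003049, minus strand) encodes the enzyme that removes glucuronic acid from glycosaminoglycans. It read 12.9, 13.4 and 13.7 FPKM in NULL and 27.2, 28.7 and 30.2 FPKM in WT. Each NULL value was below each WT value, and the difference was -1.05 (SE 0.064, limma adjusted p = 2.01e-05). Gla, the alpha-galactosidase whose loss causes Fabry disease in humans, read 2.71, 2.30 and 2.57 FPKM in NULL and 4.39, 3.88 and 3.91 FPKM in WT. Its difference was -0.52 (limma adjusted p = 0.000743) and kept its sign under all 4 rescalings, but was not called in either rescaling that equalised totals. Neu1, the sialidase of lysosomes, read 6.49, 6.84 and 5.88 FPKM in NULL and 3.05, 3.49 and 4.35 FPKM in WT, a difference of 0.68 (SE 0.11, limma adjusted p = 0.00107). Idua, which removes iduronic acid, read 3.39, 3.52 and 3.15 FPKM in NULL and 2.22, 2.27 and 2.40 FPKM in WT, a difference of 0.40 (limma adjusted p = 0.00162). Manba, the beta-mannosidase, read 7.84, 8.92 and 7.83 FPKM in NULL and 6.45, 6.07 and 6.08 FPKM in WT, a difference of 0.35 (limma adjusted p = 0.00342). For these 3 genes the groups did not overlap.

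Man2b1, the alpha-mannosidase, averaged 16.5 ± 1.02 FPKM in NULL and 14.3 ± 0.645 FPKM in WT (SD, n = 3 each). Its difference of 0.20 (limma adjusted p = 0.0354) lost the call without any one of NULL A, NULL B, WT A and WT B, at 0.15 to 0.21, and with library totals made equal. Glb1, the beta-galactosidase, averaged 14.2 ± 1.19 FPKM in NULL and 14.7 ± 1.13 FPKM in WT, and Fuca1, the alpha-fucosidase, averaged 8.20 ± 0.882 and 8.52 ± 0.845 FPKM (SD, n = 3 each). Gaa, the acid alpha-glucosidase, Hexa, the alpha chain of beta-hexosaminidase, and Naglu, an N-acetylglucosaminidase, were at 1.83, 1.44 and 2.30 FPKM in NULL and 1.79, 1.62 and 2.75 FPKM in WT on average. In all 3 WT C gave the highest value of the 6 libraries. Without WT C the difference of Gaa was 0.25 (limma adjusted p = 0.0457), against 0.047 with it. Ctsa, Neu1 and Glb1 encode proteins that are known to form 1 complex. The level of Ctsa over that of Glb1 was 2.001, 1.78 and 2.11 in NULL and 1.14, 1.18 and 1.22 in WT, and that of Neu1 over Glb1 was 0.444, 0.451 and 0.456 in NULL and 0.223, 0.242 and 0.274 in WT. Gusb over Glb1 was 0.881, 0.884 and 1.06 in NULL and 1.99, 1.99 and 1.90 in WT.

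Of the 10 other hydrolases and soluble proteins 5 rose in NULL, 0 were called lower by limma, also at an unadjusted p below 0.05, and 5 were not called. All tested genes stood at 23.3% higher and 42.0% lower. Psap (GRCm38 chr10:60277627-60302597, plus strand) is the gene of the saposin precursor. Its product is cut into saposins, which present sphingolipids to their hydrolases. It read 231, 249.955 and 214 FPKM in NULL and 72.3, 82.5 and 75.3 FPKM in WT. The lowest NULL library stood far above the highest WT library, and the difference was 1.58 (SE 0.087, limma adjusted p = 1.58e-05). Grn encodes progranulin, which binds prosaposin and is cut into granulins in the lysosome. It read 13.6, 15.4 and 12.9 FPKM in NULL and 4.39, 4.55 and 5.46 FPKM in WT, a difference of 1.37 (SE 0.096, limma adjusted p = 2.99e-05). The NULL mean was 2.91 times the WT mean, close to the 3.02 of Psap. Tpp1, a tripeptidyl peptidase, read 8.18, 9.60 and 8.64 FPKM in NULL and 5.45, 5.28 and 5.38 FPKM in WT, a difference of 0.62 (limma adjusted p = 0.000205). Acp5, the tartrate-resistant phosphatase best known from osteoclasts, read 4.22, 4.002 and 3.35 FPKM in NULL and 2.15, 2.15 and 2.75 FPKM in WT, a difference of 0.54 (limma adjusted p = 0.00269). The groups did not overlap for either gene.

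Sgsh, the sulfamidase of heparan sulfate breakdown, read 1.79, 1.86 and 1.58 FPKM in NULL and 1.13, 1.14 and 1.504 FPKM in WT. Its difference of 0.29 (limma adjusted p = 0.0291) was not called after quantile normalization or without any one of NULL A, NULL B, WT A and WT B, at 0.25 to 0.27 without these libraries. Npc2, the sterol carrier of the lysosomal lumen, averaged 74.0 ± 3.56 FPKM in NULL and 67.9 ± 2.65 FPKM in WT (SD, n = 3 each), and missed the threshold as deposited but was called higher in 3 of 4 rescalings. Asah1, the acid ceramidase, averaged 28.4 ± 4.41 FPKM in NULL and 25.9 ± 0.405 FPKM in WT, and Lipa, the acid lipase, 9.98 ± 0.335 and 10.1 ± 0.117 FPKM (SD, n = 3 each). Asah1 was called without NULL A, at 0.24 (limma adjusted p = 0.0258) against 0.12 with it. Ids, the iduronate sulfatase, and Acp2, the lysosomal acid phosphatase, were at 1.44 and 1.09 FPKM in NULL and 1.57 and 0.946 FPKM in WT on average and were not called. The level of Psap over that of Npc2 was 3.22, 3.20 and 2.95 in NULL and 1.11, 1.22 and 1.07 in WT.

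The membrane proteins were the class with the largest share called higher in NULL, 8 of 10 tested genes with 0 lower. Over all tested genes 23.3% were called higher and 42.0% lower. The class count was 9 with median-of-ratios scaling and under quantile normalization, beside 31.7% and 28.5% of all genes. It was 7 with equal totals and 10 with totals equalised without small RNAs, beside 20.4% and 45.1%. At an unadjusted limma p below 0.05 the count of lower membrane protein genes was also 0. Laptm5 (GRCm38 chr4:130913125-130936141, plus strand) encodes a transmembrane protein that sends antigen receptors of lymphocytes to lysosomes. It read 76.0, 75.2 and 68.4 FPKM in NULL and 27.3, 32.8 and 35.3 FPKM in WT, a difference of 1.18 (SE 0.10, limma adjusted p = 5.82e-05). Lamp1, a main glycoprotein of the limiting membrane, read 87.1, 92.5 and 91.4 FPKM in NULL and 60.7, 58.9 and 61.8 FPKM in WT, a difference of 0.57 (SE 0.062, limma adjusted p = 0.000143). Both genes stood apart in the groups by far more than their spread. Lamp2, its relative needed for fusion with autophagosomes, averaged 30.4 ± 3.12 FPKM in NULL and 26.5 ± 2.34 FPKM in WT (SD, n = 3 each). It was not called with all libraries, at 0.19, but was called without NULL A, at 0.27 (limma adjusted p = 0.0325), and under 3 of the 4 rescalings.

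Members known for a part in ion transport were Tcirg1, Clcn7, Ostm1 and Mcoln1. Tcirg1, the a3 subunit of the proton pump, read 28.7, 27.3 and 23.9 FPKM in NULL and 11.8, 12.8 and 14.5 FPKM in WT, a difference of 0.98 (SE 0.097, limma adjusted p = 9.93e-05). Clcn7, the chloride-proton exchanger, read 7.15, 6.53 and 6.58 FPKM in NULL and 4.48, 4.60 and 4.27 FPKM in WT, a difference of 0.51 (SE 0.067, limma adjusted p = 0.000363). Ostm1, its beta subunit, averaged 13.4 ± 1.09 FPKM in NULL and 9.97 ± 0.146 FPKM in WT (SD, n = 3 each), a difference of 0.39 (limma adjusted p = 0.00219). Loss of any of these 3 genes causes osteopetrosis in mice. The osteoclast markers other than Nfatc1 were below 1 FPKM here, and their part in these differences was not tested. Mcoln1, a cation channel of the lysosomal membrane, averaged 6.17 ± 0.432 FPKM in NULL and 4.46 ± 0.331 FPKM in WT (SD, n = 3 each), a difference of 0.39 (limma adjusted p = 0.00293).

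Npc1, the membrane partner of Npc2 in cholesterol export, read 9.27, 10.3 and 9.35 FPKM in NULL and 4.77, 4.87 and 3.96 FPKM in WT, a difference of 0.94 (SE 0.086, limma adjusted p = 7.19e-05). The level of Npc1 over that of Npc2 was 0.129, 0.132 and 0.129 in NULL and 0.0730, 0.0719 and 0.0561 in WT, so that the NULL libraries lay close together and above all WT libraries. Laptm4a, a relative of Laptm5, averaged 24.5 ± 1.28 FPKM in NULL and 20.1 ± 1.73 FPKM in WT (SD, n = 3 each), a difference of 0.28 (limma adjusted p = 0.0164). Its call was lost without NULL B or NULL C (adjusted p = 0.0513 and 0.0521) and with library totals made equal. Scarb2, the receptor that carries glucocerebrosidase to lysosomes, averaged 15.9 ± 0.868 FPKM in NULL and 17.2 ± 1.11 FPKM in WT (SD, n = 3 each) and was not called. Cd63, a tetraspanin of late endosomes, was near 0 at 0.395, 0.118 and 0.348 FPKM in NULL and 0.0250, 0.380 and 0.0605 FPKM in WT.

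Tfeb, the regulator after which this gene network is often named, did not differ beyond its spread. It read 5.32, 4.12 and 4.45 FPKM in NULL and 4.11, 4.32 and 6.21 FPKM in WT, with overlapping groups and a difference of -0.051 (SE 0.14, limma adjusted p = 0.775). It was not called in any of the alternatives, and its sign changed in several, rescalings included. RNA levels do not show the nuclear entry through which TFEB is known to be controlled. Its relative Tfe3, named after its values were seen, averaged 4.21 ± 0.190 FPKM in NULL and 3.16 ± 0.544 FPKM in WT (SD, n = 3 each), a difference of 0.33 (limma adjusted p = 0.0202). That call was lost without NULL A, NULL C or WT A, with adjusted p-values of 0.0558 to 0.0669, and without a filter or with array weights.

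Of 95 tested pathway genes outside the members 35 were called higher (36.8%) and 27 lower (28.4%) in NULL, beside 23.3% and 42.0% of all tested genes. With median-of-ratios scaling 45 were higher (47.4%) and 15 lower (15.8%), beside 31.7% and 32.7%. The lists that follow hold 9 to 23 tested genes each and are given as counts to be read against those shares. They too were chosen with earlier results of these data known. Other lysosomal hydrolases and activators rose in 7 of 20 cases and fell in 5. The palmitoyl-protein thioesterase Ppt1 averaged 136 ± 20.4 FPKM in NULL and 56.1 ± 3.996 FPKM in WT, and the amidase Naaa 0.437 ± 0.0654 and 1.80 ± 0.508 FPKM (SD, n = 3 each). Naaa reached the filter only through WT. Among other proteases and protease inhibitors 5 of 9 rose and 3 fell. The peptidases Dpp7 and Ctso rose by 0.75 and 0.56, and the cystatin Cst7 fell to 3.51 ± 0.903 FPKM in NULL, against 10.0 ± 0.886 FPKM in WT (SD, n = 3 each). Other lysosomal membrane proteins rose in 11 of 23 cases and fell in 5. The peptide and histidine transporters Slc15a4 and Slc15a3 moved apart, Slc15a4 to 20.4 ± 0.775 FPKM in NULL, against 8.85 ± 0.505 FPKM in WT, and Slc15a3 to 0.869 ± 0.0121 FPKM in NULL, against 3.46 ± 0.961 FPKM in WT (SD, n = 3 each). Slc15a3, like Naaa, passed the filter only through WT. Gpr137b rose by 0.96.

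Of 15 tested V-ATPase subunits outside the members 5 were called higher (33.3%) and 2 lower (13.3%) on the deposited scale, where all genes stood at 23.3% and 42.0%. Their median difference was -0.011, beside -0.13 for all genes. Atp6v0c, the proteolipid of the membrane ring, read 5.90, 5.93 and 3.03 FPKM in NULL and 0.536, 1.70 and 1.23 FPKM in WT. Atp6v1d and Atp6v0d1 rose by 0.62 and 0.54. The count of higher subunits depended on scaling, at 6 with median-of-ratios scaling, 12 under quantile normalization, 3 with equal totals and 13 with totals equalised without small RNAs, and no subunit was called lower in these 4. Tcirg1 over Atp6v0d1 was 1.10, 1.17 and 0.924 in NULL and 0.677, 0.787 and 0.842 in WT.

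Of 15 tested genes for mannose-6-phosphate tagging and sorting 3 were called higher (20.0%) and 7 lower (46.7%) on the deposited scale, shares near the 23.3% and 42.0% of all genes, with a median of -0.23. Gnptab, which encodes the phosphotransferase that starts the tag, read 8.33, 8.33 and 8.67 FPKM in NULL and 20.8, 20.6 and 24.7 FPKM in WT. The difference was -1.28 (SE 0.082, limma adjusted p = 2.35e-05), and the groups were far apart. Vps29 of the retromer and Ap1s1 of the AP-1 coat fell by 0.63 and 0.64, calls that were lost with equal library totals (limma adjusted p = 0.322 and 0.262). The receptor pair, named after the values were seen, was divided. M6pr averaged 58.0 ± 1.41 FPKM in NULL and 88.0 ± 2.04 FPKM in WT, and Igf2r 15.3 ± 0.465 and 12.1 ± 0.903 FPKM (SD, n = 3 each). M6pr over Igf2r was 3.96, 3.57 and 3.87 in NULL and 7.63, 6.75 and 7.48 in WT. Gnptab stayed called lower and M6pr kept its sign in all 4 rescalings, M6pr losing its call with equal totals (-0.31, limma adjusted p = 0.395). Igf2r also lost its call there, at 0.58 (limma adjusted p = 0.0668). The list held 6 higher and 6 lower genes under both median-of-ratios scaling and quantile normalization, 1 and 1 with equal totals and 7 and 4 with totals equalised without small RNAs.

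In the list of MiT/TFE factors and their control 4 of 13 rose (30.8%) and 5 fell (38.5%), shares near the 23.3% and 42.0% of all genes. Flcn and its partner Fnip1, which act on the Rag GTPases that hold TFEB at the lysosome, rose by 0.47 and 0.42, and Rraga, a Rag GTPase, fell to 8.34 ± 0.780 FPKM in NULL, against 12.6 ± 0.661 FPKM in WT (SD, n = 3 each). Rraga lost its call with equal totals (-0.29, limma adjusted p = 0.381) and with totals equalised without small RNAs (-0.20, adjusted p = 0.145). The call of Fnip1 was lost without NULL B or NULL C (adjusted p = 0.05 and 0.0511). Median-of-ratios scaling gave 4 higher and 1 lower in that list.

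**Figure D5:**
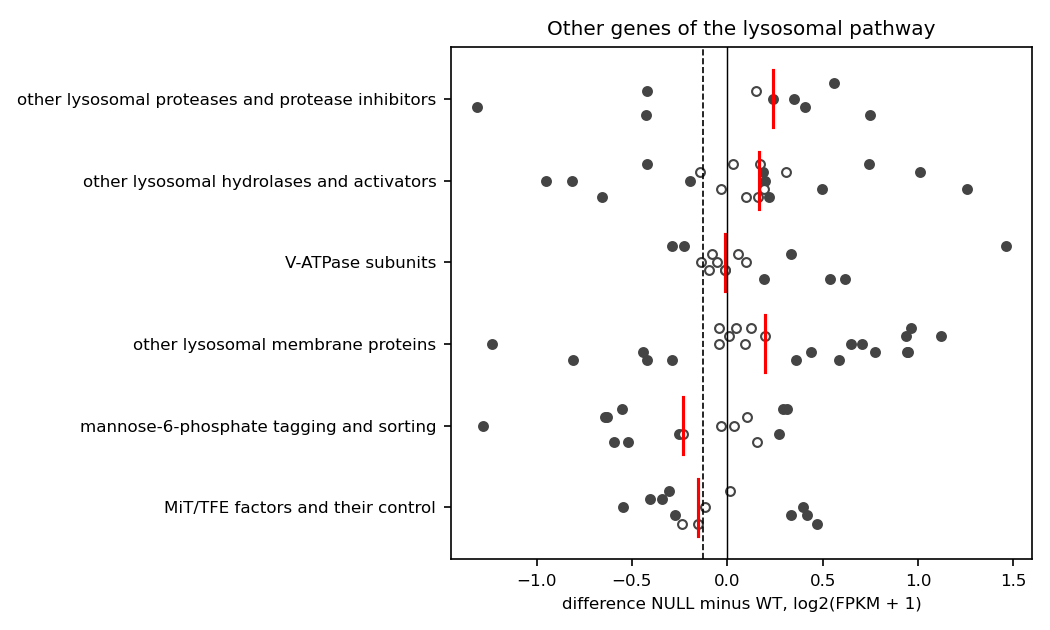
NULL minus WT difference in log2(FPKM + 1) for 95 tested pathway genes outside the members, by list, with filled points called at an adjusted p of 0.05, a red bar at the list median and a dashed line at the median of all tested genes (-0.13). The mannose-6-phosphate list has its median at -0.23 with Gnptab farthest left, and the V-ATPase median is at -0.011 with Atp6v0c alone on the far right.

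Exons of 15 members overlap those of another annotated gene in GENCODE vM21, on the opposite strand for 13 of them. The library kit keeps strand, but no source used here says whether strand was used in counting. Lamp1 shares 249 bases with Grtp1 on the opposite strand, and Grtp1 averaged 7.47 ± 0.714 FPKM in NULL and 0.201 ± 0.0887 FPKM in WT (SD, n = 3 each). Ctsb shares 774 bases with Fdft1, which was lower in NULL at 24.2 ± 0.684 FPKM, against 32.1 ± 0.513 FPKM in WT (SD, n = 3 each). Ctsl shares 1742 bases with an antisense gene and 395 bases with a pseudogene, and Ctsd shares 808 bases with Gm49369 on the same strand. Acp2 shares 652 bases with Ddb2 on the opposite strand, which averaged 3.78 FPKM in NULL and 6.22 FPKM in WT. Idua shares 124 bases with Dgkq and 141 bases with Slc26a1, both on the opposite strand. Dgkq averaged 3.25 FPKM in NULL and 2.61 FPKM in WT, and Slc26a1 0.877 and 0.575 FPKM, without overlap in either. The values of all 15 members are uncertain to the extent of their shared exons.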

How the data were processed

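FPKM values of 6 libraries were used as deposited by the authors. Per the labels' protocols, polyA RNA was made into stranded libraries and sequenced as paired ends, and the submitters' processing notes list Cufflinks and Bowtie with mm10 (GRCm38) as build, giving neither versions nor roles. No source used here states the gene annotation or a scaling between libraries. Groups and letters came from the sample titles. The series table differed from the library tables in 0 values, and a symbol on several rows was represented by its highest row on average (489 rows left out, with 0 members on more than 1 row).

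Log2(FPKM + 1) values of genes averaging 1 FPKM or more were tested two-sided with limma 3.58.1 (R 4.3.3), using a trend in the prior variance and Benjamini-Hochberg adjustment over all 9916 tested genes at a threshold of 0.05. The steps were tested on simulated data. Count models were not applied to FPKM. Positions are from GENCODE vM21 on GRCm38. Fragment numbers are approximations from low-value steps and the length of the longest transcript less 150 bases, and support no counting interval.

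The members and lists were chosen with earlier results of these data known. Values of each library are given for up to 5 called members per class with the largest absolute difference, the member with the highest mean and Tfeb, and up to 3 called genes are named per outside list (1 gene this rule picks is not reported here), beside genes said to be named after their values were seen. Alternatives were other pseudocounts, filters, rescalings, moderation, weights, a replicate block, a stricter threshold, averaged repeated symbols and leaving out each library.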

Additional observations from a re-analysis of the deposited data

How the results depend on the processing

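Of 748 recomputed results for single members under 20 alternatives, 646 kept the direction and the side of the threshold. With the sign kept, 35 lost a call and 13 gained one. The sign changed in 54, 50 of these among 11 members that were not called. Some sign changes also moved a call. Ctsc and Ctsz lost theirs in this way. Glb1, Fuca1, Lipa and Scarb2 were called higher with totals equalised without small RNAs (limma adjusted p = 0.0147, 0.017, 0.00742 and 0.0494). The cause of these changes was not tested, except that a stricter threshold or filter leaves fewer calls or genes by construction. The count of members called lower was 4 with all settings as reported, 2 after quantile normalization, median-of-ratios rescaling or at a threshold of 0.01, and 1 with totals equalised either way. Cathepsins called lower numbered 2 as reported, 1 without a filter, with array weights or with the replicate block, and 0 under each of the 4 rescalings and at a threshold of 0.01. Glycosidases called lower were 1 with a filter at 5 FPKM and with totals equalised either way. Other soluble proteins called higher were 3 with the filter at 5 FPKM, where fewer genes were tested, and 9 with totals equalised without small RNAs. Pathway genes outside the members called higher were 22 with that filter and 62 after that rescaling. Those called lower were 17 after quantile normalization and at a threshold of 0.01, 15 after median-of-ratios rescaling, 5 with equal totals and 10 with totals equalised without small RNAs. Leaving out 1 library gave 2 to 4 members lower and 0 to 2 cathepsins lower, with 2 members and 0 cathepsins lower without NULL B. Signs turned as follows. Quantile normalization gave 0.071 for Ctsc, 0.26 for Ctss, 0.13 for Glb1, 0.016 for Fuca1, 0.092 for Lipa, 0.093 for Scarb2, -0.072 for Gaa and -0.044 for Acp2. Median-of-ratios scaling gave 0.053 for Ctss, 0.11 for Glb1, 0.0040 for Hexa, 0.092 for Fuca1, 0.019 for Ids, 0.13 for Lipa, 0.046 for Scarb2 and 0.079 for Tfeb. Equal totals gave 0.070 for Ctsc, 0.17 for Ctss, 0.22 for Glb1, 0.088 for Hexa, 0.069 for Naglu, 0.20 for Fuca1, 0.088 for Ids, 0.24 for Lipa, 0.16 for Scarb2 and 0.18 for Tfeb. Totals equalised without small RNAs gave 0.17 for Ctsc, 0.27 for Ctss, 0.014 for Ctsz, 0.32 for Glb1, 0.14 for Hexa, 0.12 for Naglu, 0.29 for Fuca1, 0.15 for Ids, 0.34 for Lipa, 0.26 for Scarb2 and 0.26 for Tfeb. Array weights gave 0.041 for Ctss, 0.011 for Hexa, 0.11 for Naglu, 0.015 for Lipa and 0.036 for Tfeb. Leaving out 1 library gave -0.18 to 0.053 for Ctss, -0.059 to 0.25 for Gaa, -0.088 to 0.023 for Glb1, -0.16 to 0.028 for Hexa, -0.28 to 0.12 for Naglu, -0.13 to 0.032 for Fuca1, -0.035 to 0.0083 for Lipa and -0.14 to 0.10 for Tfeb.

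With the replicate block 18 members were higher and 3 lower. Whether the letters pair the samples was not settled. Across genes, the deviations of NULL and WT libraries from their group means correlated at 0.0735 for A, 0.355 for B and 0.133 for C. For unlike letters the values were -0.202 to 0.0451, so that each library correlated best with its own letter. So few libraries cannot decide whether this is pairing. The depth behind each value is known only roughly, and the low levels of Ctsh, Ctsl and Cd63 limit what can be said of them.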
